A study of Mus musculus with 3 samples.

Results

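The epidermal differentiation complex is a cluster of gene families on mouse chromosome 3, and its chromatin accessibility was followed here in nuclei sorted from dorsal skin. Members were all protein-coding genes of the RefSeq annotation of GRCm38.p6 (the mm10 build) on chromosome 3 whose symbols begin with Sprr, Lce or S100a, together with Ivl, Flg, Flg2, Hrnr, Rptn, Tchh and Crnn. This gave 57 members of 21631 protein-coding genes, of which 15 were S100a genes, 14 Sprr genes, 21 Lce genes and 7 belonged to the fused-S100 genes and Ivl. They lie between the start of S100a1 (chr3:90511034-90514330) and the end of S100a10 (chr3:93555117-93564645). All mice carried Dct-rtTA and Tre-H2B-GFP, a doxycycline-induced histone-GFP reporter under the control of the Dct promoter, which is active in the melanocyte lineage. All received doxycycline in drinking water for 5 days (20 mg in 100 ml), and GFP-positive nuclei were sorted for single-nucleus ATAC-seq. This assay reads accessible chromatin as the places where Tn5 transposase could insert its adapters. Their age is 7 weeks in the treatment text and 8 weeks in the sample characteristics. The UVB group was 24 pooled mice irradiated on the back 3 times within 1 week at 2.2 mJ/cm2. The anagen group was 8 pooled mice whose hair cycle had been started by depilation with Nair cream, so anagen and depilation cannot be told apart. The telogen group was 12 pooled mice with a resting hair cycle, for which the labels state neither treatment.

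Each condition was 1 pooled sample, so no difference between conditions has a replicate check and no test between conditions was run. Counted once, the nuclei numbered 6554 in UVB, 3749 in anagen and 2042 in telogen, with 16183702, 10386127 and 5225945 counts and medians of 1726, 1577 and 1650 counts per nucleus. UVB was sequenced in 2 libraries that the labels call technical replicates, and anagen and telogen shared another library, so an effect of UVB and one of library cannot be told apart. Between conditions, 506 barcodes were shared. Nuclei named melanocyte-like from their markers, the cells the Dct label was to mark, made up 45.8% of UVB, 30.6% of anagen and 11.2% of telogen nuclei. In UVB they came mainly from clusters 2 and 3 (1494 and 1469 nuclei), with 5 and 8 of 13 melanocyte markers at least 2-fold higher, and in anagen mainly from cluster 6 (792 nuclei), with 12 of 13. Keratinocyte-like nuclei made up 22.1% of UVB nuclei (1449 nuclei), 8.78% of anagen nuclei (329) and 21.4% of telogen nuclei (438). They came from 2 clusters, and these were held unequally. Cluster 1, in which 10 of 12 markers of differentiating keratinocytes were at least 2-fold above the other nuclei, held 1343 UVB, 129 anagen and 354 telogen nuclei. Cluster 10, in which 8 of 12 hair follicle markers were at least 2-fold higher, held 106 UVB, 200 anagen and 84 telogen nuclei. The features between the first and the last member were kept out of the clustering, so member values did not shape these classes. Barcode names carry a tag number that the labels do not explain. Tag number 19 stood on 2934 of the 6554 UVB nuclei and on 1116 of the 1449 UVB keratinocyte-like nuclei.

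When a keratinocyte leaves the basal layer and matures, it builds a cornified envelope, a layer of cross-linked protein that replaces the cell membrane and carries the barrier function of skin. Involucrin, the small proline-rich (Sprr) proteins and the late cornified envelope (Lce) proteins are structural precursors that transglutaminases cross-link into that envelope. Filaggrin, trichohyalin, repetin, hornerin and cornulin are fused-S100 proteins, which join an S100-type calcium-binding start to a long repeat region. S100a proteins are small calcium-binding proteins, several of which act well outside the epidermis. AP-1, the dimer of Fos and Jun proteins, is a known regulator of involucrin and Sprr genes in keratinocytes.

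Promoter sequences of 7 members are shown because an open feature lay over each of them and because the results below turn on these genes. Each run is the 250 bases before the start site in RefSeq's GRCm38.p6 annotation, written 5′ to 3′ on the gene's own strand. Capitals mark matches to the AP-1 motif TGANTCA and to the TATA motif TATAAA, searched on both strands. Sprr1a (chr3:92485882-92486131, minus strand), Sprr1b (chr3:92438780-92439029, minus strand) and Sprr2h (chr3:92385435-92385684, plus strand) encode small proline-rich proteins. Ivl (chr3:92573736-92573985, minus strand) encodes involucrin, Lce6a (chr3:92621661-92621910, minus strand) a late cornified envelope protein and Crnn (chr3:93144539-93144788, plus strand) cornulin. S100a8 (chr3:90668821-90669070, plus strand) encodes a subunit of calprotectin and is set beside them as a member that was not open mainly in keratinocyte-like nuclei.
Sprr1a: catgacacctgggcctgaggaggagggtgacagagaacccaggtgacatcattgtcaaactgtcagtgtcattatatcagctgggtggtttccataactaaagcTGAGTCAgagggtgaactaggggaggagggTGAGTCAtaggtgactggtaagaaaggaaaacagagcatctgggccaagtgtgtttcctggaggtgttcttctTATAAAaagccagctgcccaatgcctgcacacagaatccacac
Sprr1b: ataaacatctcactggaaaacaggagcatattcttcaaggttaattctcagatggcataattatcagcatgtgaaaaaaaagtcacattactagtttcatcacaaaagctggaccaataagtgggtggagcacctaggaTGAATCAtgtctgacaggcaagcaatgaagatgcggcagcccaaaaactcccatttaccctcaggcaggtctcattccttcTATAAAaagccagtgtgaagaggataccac
Sprr2h: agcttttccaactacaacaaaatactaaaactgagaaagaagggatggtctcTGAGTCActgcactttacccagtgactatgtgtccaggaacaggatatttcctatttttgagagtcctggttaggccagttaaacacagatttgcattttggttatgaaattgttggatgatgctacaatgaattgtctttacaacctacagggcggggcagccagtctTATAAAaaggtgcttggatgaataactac
Ivl: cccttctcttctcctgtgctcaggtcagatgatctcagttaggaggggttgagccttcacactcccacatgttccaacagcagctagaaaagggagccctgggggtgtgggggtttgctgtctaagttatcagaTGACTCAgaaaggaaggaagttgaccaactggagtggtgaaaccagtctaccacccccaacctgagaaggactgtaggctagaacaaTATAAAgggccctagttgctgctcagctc
Lce6a: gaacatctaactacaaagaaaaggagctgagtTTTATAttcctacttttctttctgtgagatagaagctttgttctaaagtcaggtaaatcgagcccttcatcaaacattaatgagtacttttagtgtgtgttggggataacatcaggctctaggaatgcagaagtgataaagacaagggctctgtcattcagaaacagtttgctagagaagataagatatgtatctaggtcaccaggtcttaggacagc
Crnn: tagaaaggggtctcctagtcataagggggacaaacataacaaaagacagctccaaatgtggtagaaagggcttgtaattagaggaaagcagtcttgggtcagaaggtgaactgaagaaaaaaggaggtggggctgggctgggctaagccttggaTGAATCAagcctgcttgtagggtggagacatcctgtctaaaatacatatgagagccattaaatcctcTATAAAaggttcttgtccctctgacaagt
S100a8: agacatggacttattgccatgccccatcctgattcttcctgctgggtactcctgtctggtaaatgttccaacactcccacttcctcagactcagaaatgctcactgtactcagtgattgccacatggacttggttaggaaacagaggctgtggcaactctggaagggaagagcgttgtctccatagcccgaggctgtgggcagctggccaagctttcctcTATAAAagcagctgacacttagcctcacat
The Sprr1a, Sprr1b, Sprr2h, Ivl and Crnn promoters hold both motifs, Lce6a and S100a8 only TATA. Sprr1a has 2 AP-1 matches, and the TATA match of Lce6a lies at -218 from the start site. In the other 6 promoters TATA lies between -43 and -29.

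Over the promoters that the table lists for members (57 promoters, since S100a3 has 4 and S100a16 has 2), AP-1 was found in 29.8%, against 6.75% of all 32851 promoters of the same length. The match was unevenly spread over the families. AP-1 stood in 9 of 14 Sprr promoters and 5 of 7 promoters of the fused-S100 genes and Ivl, but in 3 of 16 S100a promoters and 0 of 20 Lce promoters. Sprr2b, Sprr2d, Sprr2e, Sprr2f, Sprr2h, Sprr2i and Sprr2k all hold a match between -198 and -193. Promoters of a family are partly copies of each other, so their matches to any motif are not independent. TATA stood in 10 of 14 Sprr, 5 of 7 fused-S100 and Ivl, 4 of 16 S100a and 4 of 20 Lce promoters, which makes 40.4% of member promoters against 12.4% of all. The C/EBP motif TTNNGNAA stood in 12 of 14 Sprr promoters and in 52.6% of member promoters, against 36.8% of all. The KLF/SP motif GGGTGNG was found in 21.1% of member promoters and 27.5% of all. The GATA-factor motif with the letters AGATAA stood in 12.3% of member promoters and 9.99% of all. The ETS motif GGAAGT stood in 28.1% of member promoters and 19.7% of all, and the grainyhead motif AACCNGTT in 5.26% and 1.79%. All were searched on both strands, and a match is a stretch of letters, not a bound site. S100a14, S100a2, S100a10 and Lce1f have no entry in the promoter table.

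**Figure D1:**
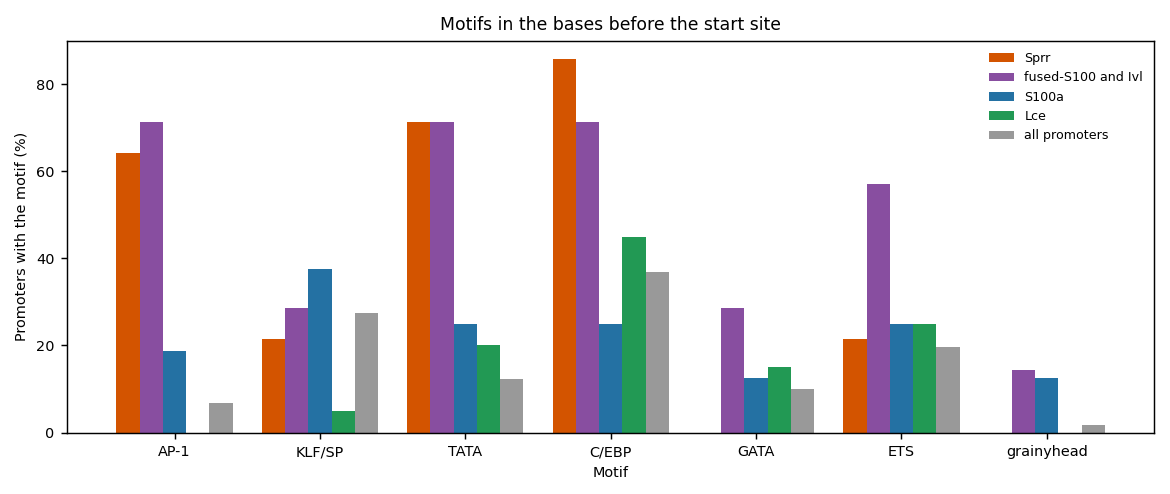
Percent of promoters that hold each motif within 250 bases before the start site, for the Sprr, fused-S100 and Ivl, S100a and Lce promoters and for all promoters of the table. AP-1 and TATA bars are highest for Sprr (64.3% and 71.4%) and for the fused-S100 genes and Ivl (71.4% for each), and no Lce promoter holds AP-1.

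Counts were summed per gene over the deposited 500 bp features that overlap the gene body or 2 kb at either end, and given as CPM, the counts in a window scaled to the total counts in features. By this measure the families differed in whether they had any open feature. All 15 S100a genes had at least 1 feature, against 4 of 14 Sprr genes, 6 of 21 Lce genes and 6 of 7 fused-S100 genes and Ivl. Over all protein-coding genes, 18019 of 21631 had one. No feature lay in the windows of Sprr2a1, Sprr2a2, Sprr2a3, Sprr2b, Sprr2d, Sprr2f, Sprr2i, Sprr2k, Sprr3 and Sprr4. The same held for Lce1a2, Lce1c, Lce1d, Lce1e, Lce1f, Lce1g, Lce1h, Lce1i, Lce1j, Lce1l, Lce1m, Lce3b, Lce3c, Lce3e and Lce3f, and for Hrnr, which encodes hornerin. Some members are near-identical copies. The promoters of Sprr2a1 and Sprr2a2 agreed at 100% of 250 bases, those of Sprr2d and Sprr2e at 88% and those of Lce1g and Lce1i at 85.6%. Whether reads that match several copies were dropped is not given in the sources used here, and their part in the missing features was not tested. Of the 18273 counts in member windows, S100a genes held 91.8%, the fused-S100 genes and Ivl 4.66%, Sprr genes 2.07% and Lce genes 1.49%. At least 30 counts over the 3 conditions were held by 22 members, namely all 15 S100a genes, Sprr1a, Sprr1b, Sprr2h, Lce6a, Tchh, Ivl and Crnn.

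Per kilobase of window, S100a1, a calcium sensor best known from heart muscle, was the most accessible member over all nuclei. It had 12.6 CPM per kb in UVB, 15.5 in anagen and 14.7 in telogen. Its window shares all of its features with those of S100a13 and Chtop, so the level belongs to that stretch and not to S100a1 alone. S100a6, calcyclin, followed with 7.62 CPM per kb in UVB, 9.35 in anagen and 12.2 in telogen. S100a4, a motility-linked member, had 7.58 CPM per kb in UVB. S100a10, the annexin A2 partner also called p11, had 7.15, 7.38 and 7.52 CPM per kb in UVB, anagen and telogen. S100a1, S100a6, S100a4 and S100a10 stood above every member of the other families. Outside the S100a family, Sprr1a was highest in UVB and telogen, with 1.67 CPM per kb in UVB, 0.406 in anagen and 2.42 in telogen. Tchh, trichohyalin of the inner root sheath, was highest in anagen, with 1.25 CPM per kb in UVB, 1.16 in anagen and 1.28 in telogen. S100a3, a protein of the hair cuticle, had 159 CPM in UVB, 129 in anagen and 160 in telogen over a long window of 22 features, which is 3.42, 2.79 and 3.44 CPM per kb.

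**Figure D2:**
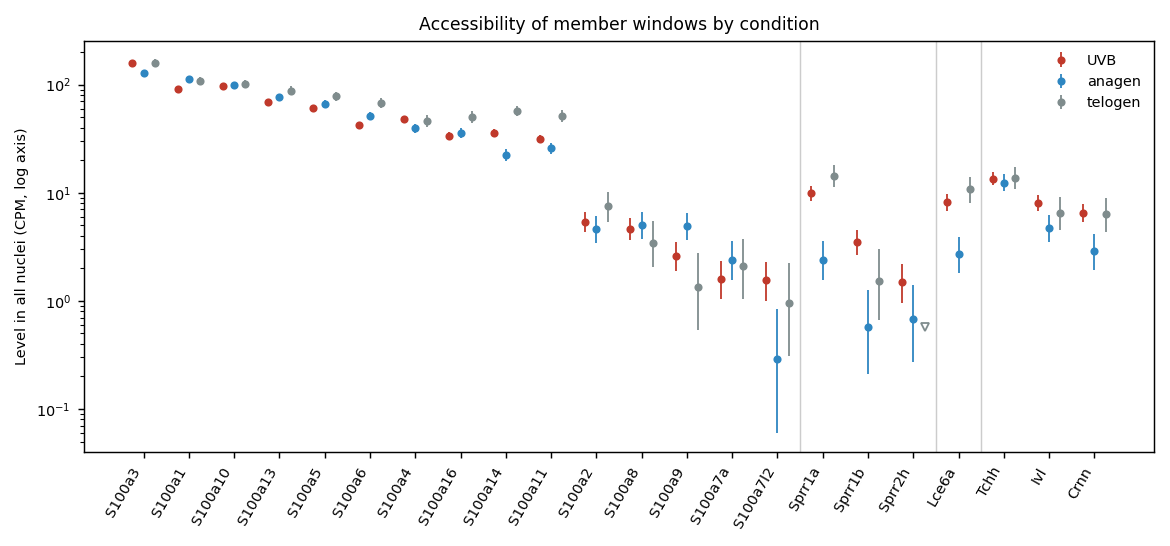
Level of the 22 members with at least 30 counts in all nuclei of UVB, anagen and telogen (CPM, log axis), grouped by family from S100a at the left through Sprr and Lce to the fused-S100 genes and Ivl. Bars are exact Poisson 95% intervals for counting error only, and the open triangle is the level that a count of 3 would give where a gene had 0 counts. Sprr1a, Sprr1b, Lce6a and Crnn are lower in anagen than in UVB and telogen, and S100a1, S100a3 and S100a10 lie close together over the conditions.

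Sprr1a, Lce6a, Ivl and Crnn were open mainly in keratinocyte-like nuclei, while the S100a genes included members with and without a higher level there. The ratio of CPM in keratinocyte-like nuclei to CPM in all other nuclei of the same condition was used, with exact conditional binomial 95% intervals for counting error only. Most counts come in pairs, so these intervals are too narrow. Members at least 2-fold higher in keratinocyte-like nuclei numbered 10 of 19 in UVB, 8 of 16 in anagen and 9 of 16 in telogen with at least 30 counts. The anagen count fell to 5 at gene ends, without nuclei above 3 times the median depth, or with each nucleus and feature pair counted once. The telogen count fell to 5 at gene ends and to 3 with cluster 10 or with telogen tag numbers 8 to 10 alone, with fewer members tested in each case. A sparse member can reach 30 counts through keratinocyte-like nuclei, so the number called is partly set by this filter. Crnn reached it in anagen with 26 counts in keratinocyte-like and 4 in other nuclei. Over all genes, the share at least 2-fold higher was 13.5% in UVB, 12.3% in anagen and 10.9% in telogen. At most 0.5-fold were 1, 1 and 0 members, beside 12.5%, 14.7% and 16.6% of all genes. These were S100a9 in UVB and S100a8 in anagen. S100a9 stood at 0.261 (upper 95% limit 0.336), with 0 counts in keratinocyte-like nuclei taken at 3. S100a8 stood at 0.356 (0.00884 to 2.08) with 1 count. The median log2 ratio of the members was 1.14 in UVB, 1.02 in anagen and 1.64 in telogen.

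Sprr1a, a small proline-rich envelope precursor, had 42.3 CPM in keratinocyte-like and 1.02 CPM in other UVB nuclei, which is 41.4-fold (23.5 to 79.5). In anagen it had 33.2 CPM in keratinocyte-like and 0.711 CPM in other nuclei, from 18 and 7 counts. In telogen it had 43.5 CPM in keratinocyte-like and 1.65 CPM in other nuclei, which is 26.4-fold (11.5 to 74.4). The keratinocyte-like levels lay close together over the 3 conditions, and each lay far above the other nuclei. Sprr1b, its close relative, had 46, 2 and 8 counts in keratinocyte-like nuclei of UVB, anagen and telogen, against 11, 4 and 0 counts in the other nuclei. Only the UVB counts gave a ratio with at least 30 counts, 15.3-fold (7.81 to 32.8). Sprr2h, a member of the Sprr2 group, had 16, 2 and 0 counts in keratinocyte-like nuclei and 8, 5 and 0 in the others. Sprr2e had 5, 9 and 3 counts in all nuclei of UVB, anagen and telogen, which is too few for a ratio.

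Lce6a was the only Lce gene with at least 30 counts. It had 30.5 CPM in keratinocyte-like and 2.05 CPM in other UVB nuclei, which is 14.9-fold (9.64 to 23.9). In anagen it had 33.2 CPM in keratinocyte-like and 1.02 CPM in other nuclei, from 18 and 10 counts. In telogen it had 28.4 CPM in keratinocyte-like and 3.02 CPM in other nuclei, a 9.39-fold difference (4.78 to 20.1). The other Lce genes with a feature, Lce1a1, Lce1b, Lce1k, Lce3a and Lce3d, held between 0 and 15 counts per condition. Of these, Lce1b had 13 counts in UVB keratinocyte-like nuclei and 0 in those of anagen and telogen.

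Crnn, cornulin, had 26.2 CPM in keratinocyte-like and 1.10 CPM in other UVB nuclei, which is 23.8-fold (13.5 to 45.2). The anagen values were 48.0 CPM in keratinocyte-like and 0.406 CPM in other nuclei, or 118-fold (41.0 to 465), with 4 counts in the other nuclei. The telogen values were 19.6 CPM in keratinocyte-like and 0.549 CPM in other nuclei, or 35.6-fold (9.06 to 307), with 2 counts in the others. All counts of Crnn lay in 1 feature over its start site. Ivl, involucrin, was 14.0-fold higher in keratinocyte-like UVB nuclei (9.06 to 22.2), 28.7-fold in anagen (15.6 to 53.9) and 8.86-fold in telogen (3.76 to 24.1). Tchh differed least in this group, at 2.88-fold in UVB (2.18 to 3.79), 3.14-fold in anagen (1.82 to 5.13) and 4.32-fold in telogen (2.60 to 7.32). Flg, filaggrin, held 6, 2 and 4 counts in all nuclei of UVB, anagen and telogen, and none of them was in a keratinocyte-like nucleus. In those nuclei a count of 3 would give 0.864 CPM in UVB, 5.53 in anagen and 1.89 in telogen. Flg2 (5, 4 and 1 counts) and Rptn, repetin (12, 13 and 4 counts), were also sparse.

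S100a14 and S100a16, epithelial members of the S100a family, were at least 5-fold higher in each condition, though 83.0% of the counts of S100a14 lie in features shared with S100a13. S100a14 was 9.28-fold higher in keratinocyte-like UVB nuclei (7.73 to 11.2), 7.58-fold in anagen (5.62 to 10.1) and 9.92-fold in telogen (7.39 to 13.5). S100a16 was 6.55-fold (5.49 to 7.84), 5.13-fold (3.97 to 6.58) and 5.01-fold higher (3.84 to 6.59) in UVB, anagen and telogen. S100a13 was 2.21, 2.26 and 2.65-fold higher, but 98.7% of its counts lie in features shared with S100a1 or S100a14. S100a2, known from basal keratinocytes in human skin, was 6.61, 2.59 and 3.67-fold higher, with 6 anagen counts in keratinocyte-like nuclei and an anagen interval of 0.901 to 6.13, and all of its features also lie in the long S100a3 window. S100a11, calgizzarin, was 1.83, 2.20 and 1.46-fold higher. S100a1 (0.573, 1.12 and 0.660-fold), S100a10 (0.755, 0.616 and 0.812-fold), S100a4 (1.04, 1.33 and 0.826-fold), S100a5 (1.15, 1.15 and 0.775-fold) and S100a6 (0.955, 1.15 and 0.695-fold) were not 2-fold higher in any condition. Of these, S100a10 was lower in keratinocyte-like nuclei in all 3 conditions.

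**Figure D3:**
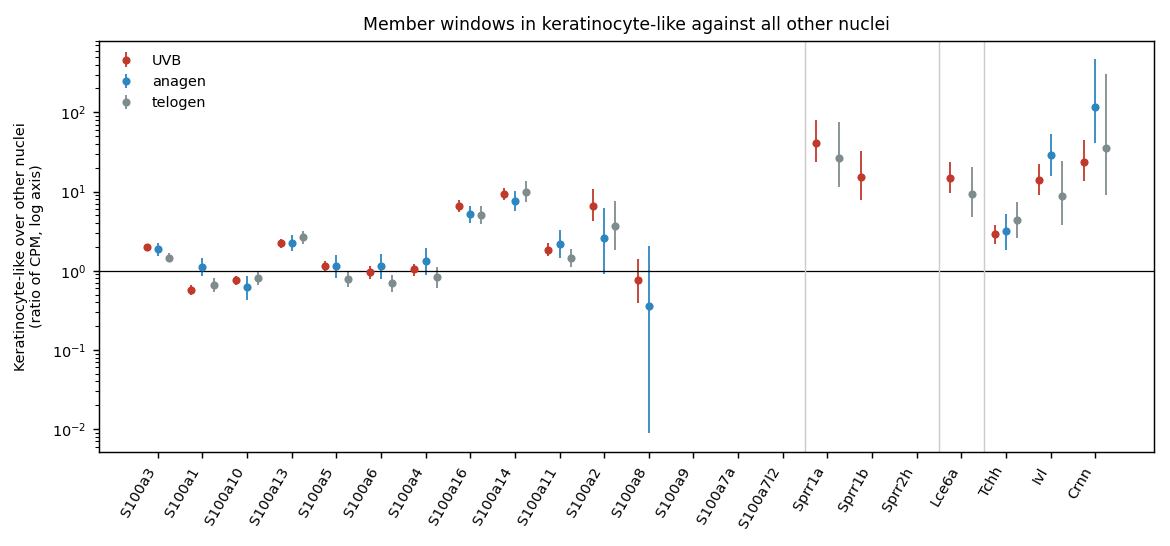
Ratio of CPM in keratinocyte-like nuclei to CPM in all other nuclei for UVB, anagen and telogen (log axis), with exact conditional binomial 95% intervals for counting error only. Points need at least 30 counts over both groups of nuclei and at least 1 in each, and the line marks a ratio of 1. Sprr1a, Sprr1b, Lce6a, Ivl and Crnn lie between 8.86 and 118, while S100a1, S100a10, S100a4, S100a5 and S100a6 lie between 0.573 and 1.33.

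The remaining classes separated the S100a genes further. S100a3 was most open in fibroblast-like nuclei, with a mean of 307 CPM over the 3 conditions, against 232 CPM in keratinocyte-like and 23.3 CPM in melanocyte-like nuclei. S100a4, long used as a fibroblast marker, had a mean of 97.1 CPM in fibroblast-like and 11.5 CPM in melanocyte-like nuclei. S100a6 had a mean of 97.3 CPM in Schwann-like, 85.6 CPM in fibroblast-like and 12.8 CPM in melanocyte-like nuclei. The melanocyte-like nuclei, the cells the sort was aimed at, thus had the lowest mean of the 6 named classes for S100a3, S100a4, S100a5 and S100a6. For S100a1 their mean was 126 CPM, against 134 CPM in myeloid and Langerhans-like nuclei, which were highest. S100a4 shares all of its features with S100a3 or S100a5, so these neighbours are not independent readings.

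**Figure D4:**
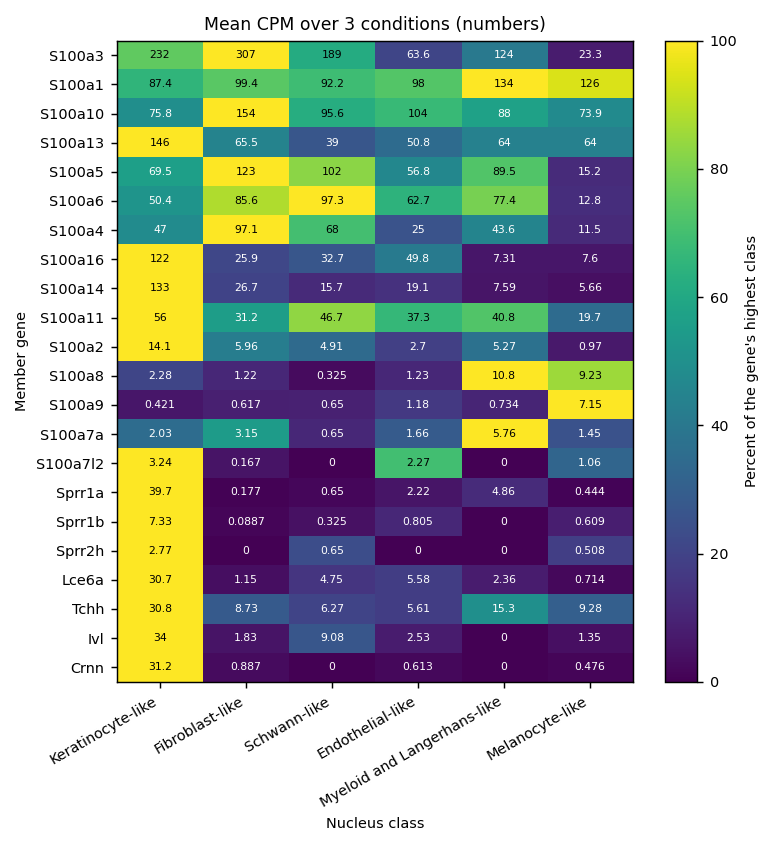
Mean CPM over UVB, anagen and telogen (numbers) of the 22 members with at least 30 counts, in 6 named classes of nuclei, with colour showing percent of the gene's highest class. The keratinocyte-like column is brightest for the Sprr genes, Lce6a, Tchh, Ivl, Crnn, S100a13, S100a14, S100a16, S100a11, S100a2 and S100a7l2, and S100a9 is brightest in melanocyte-like nuclei (7.15 CPM).

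S100a8 and S100a9 encode the subunits of calprotectin, an antimicrobial protein abundant in neutrophils and monocytes and switched on in injured epidermis. S100a8 had 75, 52 and 18 counts in all nuclei of UVB, anagen and telogen, and S100a9 had 42, 51 and 7. Of the S100a9 counts, 37 of 42 in UVB and 49 of 51 in anagen were in melanocyte-like nuclei, and 43 of the anagen counts were in cluster 6, a melanocyte-like cluster with 792 of its 835 nuclei from anagen. Keratinocyte-like nuclei held 0 S100a9 counts in UVB, 0 in anagen and 2 in telogen. Myeloid and Langerhans-like nuclei had a mean of 10.8 CPM of S100a8 but 0.734 CPM of S100a9, against 9.23 and 7.15 CPM in melanocyte-like nuclei. In cluster 6 of anagen, 6 of 10 neutrophil markers had counts, with a summed level of 46.2 CPM, and Ly6g, Elane, Ngp and Retnlg were at 0. In myeloid and Langerhans-like anagen nuclei the same list summed to 128 CPM. The 13 melanocyte markers summed to 5675 CPM in cluster 6 of anagen, against 554 CPM in myeloid and Langerhans-like anagen nuclei. The feature counted for S100a9 does not overlap the 250 bases before its start site, while that of S100a8 does.

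Over all nuclei, the sum over member windows was 568 CPM in UVB, 535 CPM in anagen and 674 CPM in telogen. The ratio was 0.843 for UVB over telogen (0.810 to 0.876), 0.794 for anagen over telogen (0.761 to 0.829) and 1.06 for UVB over anagen (1.03 to 1.10). UVB over anagen reversed to 0.835 without nuclei above 3 times the median depth and to 0.852 without UVB tag number 19. The S100a genes hold most of these sums. Members outside the S100a family had a ratio of 0.921 for UVB over telogen, 0.502 for anagen over telogen and 1.84 for UVB over anagen. In sums over all nuclei, fewer keratinocytes and less open chromatin per keratinocyte cannot be told apart. The 14 keratinocyte markers, all with counts in each condition, summed to 777 CPM in UVB, 455 CPM in anagen and 905 CPM in telogen, the same order as the sum of these members, and its part in their values was not tested.

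Past 2-fold in either direction were 9.51% of all genes for UVB over telogen, 12.8% for anagen over telogen and 8.72% for UVB over anagen. For UVB over telogen, 1 of 21 members was at least 2-fold higher (Sprr1b) and 0 were at most 0.5-fold, where 3.93% of all genes were that much higher and 5.58% that much lower. For anagen over telogen, 1 of 19 was at least 2-fold higher (S100a9) and 4 were at most 0.5-fold (Sprr1a, Lce6a, S100a14 and Crnn), with 5.74% and 7.09% of all genes. For UVB over anagen, 5 of 21 were at least 2-fold higher (Sprr1b, Sprr1a, Lce6a, Crnn and Sprr2h) and 0 were at most 0.5-fold, with 4.16% and 4.56% of all genes. Without tag number 19, 6 members were past 2-fold in either direction for UVB over telogen and 3 for UVB over anagen. Without nuclei above 3 times the median depth, 3 were past it for UVB over anagen and 2 for anagen over telogen. The comparisons share their samples and are not independent of each other. Median log2 ratios of the members were -0.22 for UVB over telogen, -0.31 for anagen over telogen and 0.22 for UVB over anagen, beside -0.13, -0.11 and -0.03 over all genes.

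Sprr1a had 9.89 CPM in UVB, 2.41 CPM in anagen and 14.4 CPM in telogen, over all nuclei. Its ratio was 0.168 for anagen over telogen (0.102 to 0.267) and 4.11 for UVB over anagen (2.68 to 6.54). Without UVB tag number 19, UVB over anagen was 2.01, and without nuclei above 3 times the median depth it was 2.55. Anagen over telogen was 0.396 without those deep nuclei and 0.336 with telogen tag numbers 8 to 10 alone. Within keratinocyte-like nuclei the anagen over telogen ratio was 0.763 (0.427 to 1.3). The other nuclei had 0.711 CPM in anagen and 1.65 CPM in telogen, from 7 and 6 counts, which is too few for a ratio. Sprr1a was thus lower in anagen over all nuclei, and not distinguishable from telogen at this depth inside the keratinocyte-like class.

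Lce6a repeated this pattern. It had 8.16 CPM in UVB, 2.70 CPM in anagen and 10.7 CPM in telogen, with a ratio of 0.252 for anagen over telogen (0.154 to 0.403) and 3.03 for UVB over anagen (2.00 to 4.73). Anagen over telogen was 0.380 without the deep nuclei and 0.430 with telogen tag numbers 8 to 10 alone. In keratinocyte-like nuclei it was 1.17 (0.637 to 2.06). The other nuclei were lower in anagen, with 1.02 CPM of Lce6a against 3.02 CPM in telogen, from 10 and 11 counts, which is too few for a ratio. S100a14 had 35.8 CPM in UVB, 22.2 CPM in anagen and 57.0 CPM in telogen. Its anagen over telogen ratio was 0.390 (0.327 to 0.465) over all nuclei, 0.822 (0.618 to 1.08) in keratinocyte-like and 1.08 (0.790 to 1.49) in other nuclei. Without the deep nuclei it was 0.607 over all nuclei, which is no longer at most 0.5.

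Crnn had 6.49 CPM in UVB, 2.89 CPM in anagen and 6.31 CPM in telogen over all nuclei. Its ratio was 0.457 for anagen over telogen (0.269 to 0.774) and 2.25 for UVB over anagen (1.48 to 3.49). The first became 0.733 and the second 1.39 without the deep nuclei, and UVB over anagen was 1.19 without tag number 19. Crnn's anagen over telogen ratio was 0.586 with telogen tag numbers 8 to 10 alone and 0.501 when scaled to housekeeping gene ends. Sprr2h, with 24 counts in UVB, 7 in anagen and 0 in telogen, was 2.20-fold higher in UVB than in anagen (0.920 to 6.05), an interval that includes 1. Without the deep nuclei that ratio was 1.60, and with each nucleus and feature pair counted once it was 1.72. Sprr1b had 57, 6 and 8 counts in UVB, anagen and telogen. It was 2.30-fold higher in UVB than in telogen (1.09 to 5.58) and 6.10-fold higher in UVB than in anagen (2.63 to 17.3). With only features within 1 kb of a gene end, UVB over telogen was 0.807. S100a9 was 3.67-fold higher in anagen than in telogen (1.66 to 9.57), and 1.27-fold from 12 and 6 counts without the deep nuclei.

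Ivl and Tchh moved less over all nuclei. Ivl had 8.03 CPM in UVB, 4.72 CPM in anagen and 6.51 CPM in telogen, and Tchh had 13.5, 12.4 and 13.8 CPM in UVB, anagen and telogen. Of the other S100a genes, S100a11 was 0.613-fold in UVB (0.528 to 0.714) and 0.503-fold in anagen (0.423 to 0.598) relative to telogen. S100a6 was 0.623-fold in UVB (0.547 to 0.710) and 0.764-fold in anagen (0.667 to 0.876) relative to telogen. S100a3 was 0.994-fold in UVB (0.919 to 1.08) and 0.809-fold in anagen (0.741 to 0.883). S100a7l2, a psoriasin-like member, had 25, 3 and 5 counts in UVB, anagen and telogen, and S100a7a had 26, 25 and 11. Without tag number 19, S100a7l2 was left with 3 counts in UVB.

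Inside keratinocyte-like nuclei the members held 906 CPM in UVB, 1044 CPM in anagen and 913 CPM in telogen. The summed ratio was 0.993 for UVB over telogen (0.932 to 1.06), 1.14 for anagen over telogen (1.04 to 1.26) and 0.868 for UVB over anagen (0.793 to 0.951). Without tag number 19, which holds most UVB nuclei of this class, UVB over anagen reversed to 1.06 and UVB over telogen was 1.21. Past 2-fold in either direction were 10% of all genes for UVB over telogen, 17.7% for anagen over telogen and 16% for UVB over anagen in these nuclei. Their median depth was 1661 counts in UVB, 1142 in anagen and 2489 in telogen. Sprr1b was the 1 of 17 members at least 2-fold higher in UVB than in telogen (all genes 6.43%), and 0 were at most 0.5-fold (all genes 3.58%). For anagen over telogen, 2 of 16 were at least 2-fold higher, Ivl and Crnn (all genes 7.47%), and 0 were at most 0.5-fold (all genes 10.2%). For UVB over anagen, 1 of 17 was at least 2-fold higher, Sprr1b (all genes 8.76%), and 1 at most 0.5-fold, S100a1 (all genes 7.23%). Median log2 ratios of the members were -0.04, 0.21 and -0.13 for UVB over telogen, anagen over telogen and UVB over anagen, beside -0.11, -0.08 and -0.06 over all genes.

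Sprr1b had 13.2 CPM in UVB, 3.69 CPM in anagen and 5.05 CPM in telogen keratinocyte-like nuclei. The UVB over telogen ratio was 2.62 (1.23 to 6.44), and it was 4.82 without tag number 19, from 21 and 8 counts. The UVB over anagen ratio of 3.59 rests on 2 anagen counts, and its interval of 0.939 to 30.5 includes 1. The 2 features of Sprr1b did not behave alike. The feature 1388 bp beyond the gene (chr3:92440205-92440705) had 9.21 CPM in UVB, 3.69 CPM in anagen and 0 in telogen keratinocyte-like nuclei. The feature over the start site (chr3:92438722-92439222) had 4.03 CPM in UVB, 0 in anagen and 5.05 CPM in telogen. With only features within 1 kb of a gene end, UVB over telogen was therefore 0.799.

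Ivl had 29.6 CPM in UVB, 55.3 CPM in anagen and 17.0 CPM in telogen keratinocyte-like nuclei, from 103, 30 and 27 counts. Its ratio was 1.74 for UVB over telogen (1.13 to 2.77), 3.25 for anagen over telogen (1.87 to 5.68) and 0.536 for UVB over anagen (0.354 to 0.834). In the feature over the Ivl start (chr3:92573622-92574122) the 3 levels were 13.2 CPM in UVB, 44.3 CPM in anagen and 7.57 CPM in telogen. Crnn had 26.2 CPM in UVB, 48.0 CPM in anagen and 19.6 CPM in telogen, and its anagen over telogen ratio was 2.45 (1.40 to 4.27). Both anagen levels come mainly from cluster 10. Of the anagen counts in keratinocyte-like nuclei, cluster 10 held 26 of 30 for Ivl and 24 of 26 for Crnn. In cluster 10 alone, Ivl was 4.49-fold (1.56 to 17.7) and Crnn 5.53-fold higher in anagen than in telogen, on 4 and 3 telogen counts. In cluster 1 alone, Ivl was at 1.58 with 4 anagen counts and Crnn at 0.647 with 2. With telogen tag numbers 8 to 10 alone, which left 4 telogen counts, Ivl stood at 7.29.

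S100a1 had 57.9 CPM in UVB, 125 CPM in anagen and 78.8 CPM in telogen keratinocyte-like nuclei, and its UVB over anagen ratio was 0.461 (0.349 to 0.617). That ratio was 0.771 in cluster 1 alone, 0.572 without tag number 19 and 0.508 with each nucleus and feature pair counted once. S100a3 was 1.27-fold higher in UVB than in telogen (1.12 to 1.44). S100a13, S100a14 and S100a11 were 0.779-fold (0.664 to 0.916), 0.785-fold (0.668 to 0.923) and 0.746-fold (0.581 to 0.962) in UVB relative to telogen. S100a11 reversed to 1.15 without tag number 19 and to 1.03 in cluster 10 alone, and S100a14 to 1.39 in cluster 10 alone.

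Open features were also plentiful between the genes. The locus from the first to the last member window held 270 features, 102 of them in member windows and 149 in no window of a protein-coding gene. Of features with at least 30 counts, 108 of 162 in the locus were at least 2-fold higher in keratinocyte-like than in other nuclei (mean CPM over the 3 conditions), against 21.3% of all 177731 features. The count was 22 of 66 in S100a windows and 60 of 70 in features outside every gene window. Of 28 features in the other member windows, 14 reached 30 counts and all 14 were that much higher. A sparse feature can reach 30 counts through keratinocyte-like nuclei, so all of these counts, 60 of 70 included, are partly set by the filter. Among features of the other member windows below 30 counts, those of Flg, Lce3a, Lce1k and Lce3d (1 count) had counts in other nuclei alone. Of those outside every window, the highest in keratinocyte-like nuclei (chr3:93505983-93506483, 14013 bp from S100a11) had 43.5 CPM in UVB, 22.1 CPM in anagen and 40.4 CPM in telogen keratinocyte-like nuclei, against 2.60, 2.03 and 12.6 CPM in the others. Its neighbour at chr3:93506892-93507392 had 20.7 CPM in UVB, 35.1 CPM in anagen and 44.8 CPM in telogen keratinocyte-like nuclei and at most 1.65 CPM in the others. A feature 45600 bp from Sprr2a1 (chr3:92169735-92170235) had 28.5, 36.9 and 29.0 CPM in keratinocyte-like nuclei of UVB, anagen and telogen, against 0.629, 0.610 and 0.275 CPM. Another lay 30764 bp from Lce3a (chr3:92894023-92894523), with 22.5, 25.8 and 26.5 CPM, against 0.708, 0.508 and 0.549 CPM. One more lay 16414 bp from Crnn (chr3:93127875-93128375), with 21.6, 27.7 and 25.9 CPM, against 0.944, 0.711 and 1.65 CPM. These 5 features were open in keratinocyte-like nuclei of all 3 conditions, but they were named after their values were seen. Their higher level there is therefore not an independent result. The one nearest Lce3a lies among the Lce genes, and the one nearest Sprr2a1 lies outside the run of Sprr2 genes. A feature 4225 bp from Sprr4 (chr3:92504718-92505218) had 15.8 CPM in UVB, 1.84 CPM in anagen and 20.8 CPM in telogen keratinocyte-like nuclei. In anagen keratinocyte-like nuclei, 1.84 CPM is the level of 1 count. This feature too was named after its values were seen.

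**Figure D5:**
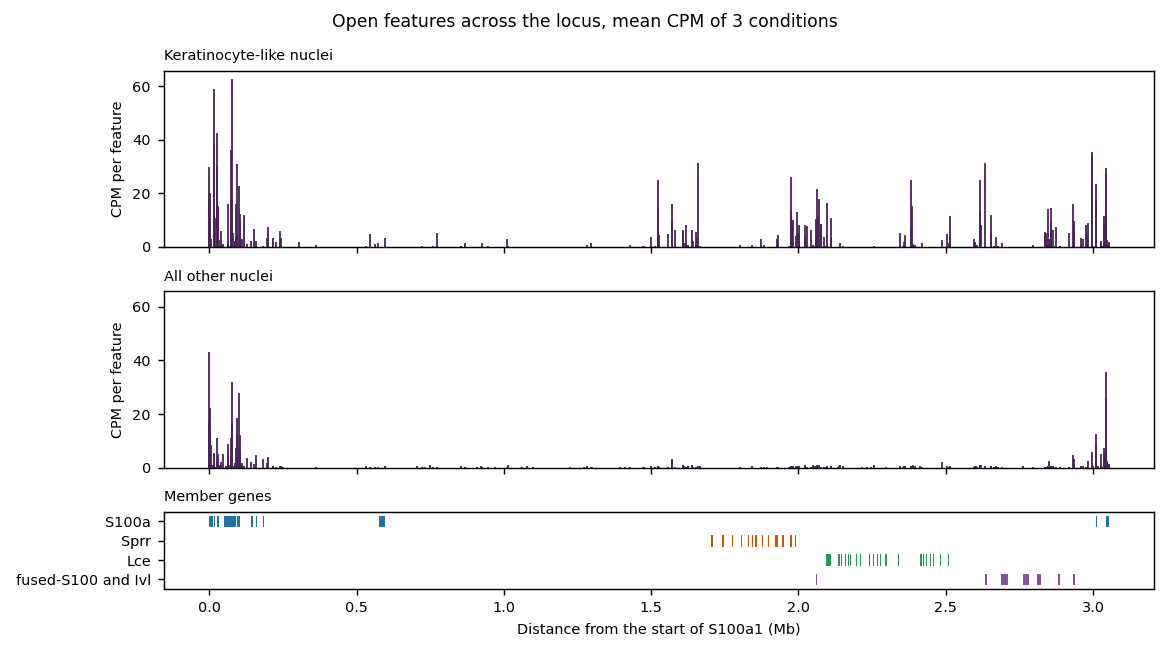
Mean CPM over UVB, anagen and telogen of each open feature along the locus (distance from the start of S100a1 in Mb), in keratinocyte-like nuclei above all other nuclei on the same scale, with member genes by family below. Of the features with at least 30 counts outside every gene window, 60 of 70 are at least 2-fold higher in keratinocyte-like nuclei. That count is partly set by the filter of 30 counts. The S100a genes at both ends and Tchh also carry signal in the other nuclei.

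A list of 38 other genes of epidermal differentiation was set beside the members. Over all nuclei, 1 of 33 was at least 2-fold higher and 18 at most 0.5-fold in anagen over telogen, 18 of 35 were at least 2-fold higher and 0 at most 0.5-fold in UVB over anagen, and 2 and 4 of 35 in UVB over telogen. The list's median log2 ratios were -1.39, 1.06 and -0.40 in that order, beside -0.11, -0.03 and -0.13 over all genes. Inside keratinocyte-like nuclei, 1 of 31 was at least 2-fold higher and 14 at most 0.5-fold in anagen over telogen. For UVB over anagen these counts were 12 and 2 of 33, and for UVB over telogen 1 and 1 of 33. The medians were -0.41, 0.30 and -0.24, beside -0.08, -0.06 and -0.11 over all genes. All 12 differentiating keratinocyte markers are on this list, as are Dlx3 and Gata3 of the hair follicle list and Krt1, Krt10, Trp63 and Sfn of the keratinocyte list that named the clusters. Genes outside the locus also entered the clustering, so these values are not independent of the classes. Casp14, the caspase of cornification, had 79.5 CPM in UVB, 11.1 CPM in anagen and 83.9 CPM in telogen keratinocyte-like nuclei. Krtdap, a keratinocyte differentiation protein, had 80.0 CPM in UVB, 7.38 CPM in anagen and 136 CPM in telogen keratinocyte-like nuclei. Krt1, a keratin of the suprabasal layers, had 21.0 CPM in UVB, 3.69 CPM in anagen and 56.1 CPM in telogen keratinocyte-like nuclei. The anagen levels rest on 6 counts of Casp14, 4 of Krtdap and 2 of Krt1. Dlx3, a homeobox factor of hair and epidermis, went the other way, with 24.8 CPM in UVB, 107 CPM in anagen and 34.7 CPM in telogen keratinocyte-like nuclei. Tgm1, the transglutaminase that cross-links the envelope, had 52.7, 73.8 and 78.2 CPM in UVB, anagen and telogen. Lor, loricrin, which sits in the same locus, had 15.3 CPM in UVB, 33.2 CPM in anagen and 27.8 CPM in telogen. The differentiating keratinocyte list of 12 genes summed to 793 CPM in UVB, 505 CPM in anagen and 1042 CPM in telogen keratinocyte-like nuclei, with Cnfn at 0 in anagen and telogen. The hair follicle list of 12 summed to 704, 655 and 866 CPM, with Krt75 and Shh at 0 in each. Inside these nuclei, none of Sprr1a, Lce6a, Ivl and Crnn was at most 0.5-fold in anagen over telogen. Casp14, Krtdap, Krt1, Pglyrp3 and Smcp were among the 14 of 31 listed genes that were. Pglyrp3 stood at 0.448-fold from 15 anagen counts, and Smcp at 0.172-fold with 0 anagen counts taken at 3. The rest of the list was not, such as Tgm1 (0.943-fold), Lor (1.20-fold) and Tgm3 (1.96-fold). The cluster makeup given above also differed between the conditions, and its part in these values was not tested.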

How the data were processed

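Single-nucleus ATAC-seq was measured in 3 pooled samples, UVB, anagen and telogen, each deposited by the authors as a matrix of whole-number counts per 500 bp feature and nucleus, with highest value 4. The submitters' processing notes name MACS2, Bowtie2 and SAMtools, and the build mm10 (GRCm38). Their versions, their settings and the counting rule: not given in the sources used here. Entries of 2 made up 62.6% of UVB, 59.1% of anagen and 61.9% of telogen entries, so counts come mostly in pairs. Barcodes that shared over 30% of their open features with another barcode of the same condition were taken as second copies and counted once (61 UVB, 1725 anagen and 543 telogen barcodes).

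Counts were summed over features within a gene body and 2 kb at either end, with genes from the RefSeq table of GRCm38.p6, and divided by all counts in features (CPM). Nuclei were clustered without the 270 features of the locus (TF-IDF, 30 components, 15 neighbours, Leiden resolution 0.6, seed 1), and the 11 clusters were named from marker lists. No doublet caller was run. With 1 sample per condition, no test and no p-value is given. A gene counts as past 2-fold at a ratio of at least 2 or at most 0.5 with at least 30 counts over both groups, and a count of 0 is set to 3 counts. Intervals (95%) are exact Poisson for levels and exact conditional binomial for ratios, and cover counting error only. The ratio intervals were tested on simulated independent Poisson counts. Those lack the pairing of the real counts, so that test cannot show how the intervals hold here. Named members were the 3 highest of each family, the 2 largest and 2 smallest ratios of each family per comparison, and every fused-S100 gene and Ivl. Others are named for counts of 5 or fewer or after their values were seen. The members and lists were chosen with earlier results of these data known. Clustering used leidenalg 0.10.2, igraph 0.11.9 and scikit-learn 1.9.0, intervals scipy 1.17.1, tables pandas 2.3.3 with numpy 2.4.6, and plots matplotlib 3.10.9, under Python 3.11.15.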

Additional observations from a re-analysis of the deposited data

How the results depend on the processing

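Over all alternatives, 105 of the summed ratios and counts of members kept their direction and size, 48 moved and 3 reversed. Of the values for single members, 607 stayed, 94 moved and 17 reversed. Splits by cluster and by family were chosen after seeing the data, and the causes of the changes were not tested. Values are log2 ratios of the summed members unless said otherwise. For UVB over anagen in all nuclei (0.08), the sum reversed to -0.26 without nuclei above 3 times the median depth and to -0.23 without UVB tag number 19. It was 0.021 for S100a members alone, 0.034 at gene ends, 0.88 outside the S100a family and 0.17 with shared features left out. In keratinocyte-like nuclei (-0.20) it was -0.34 without deep nuclei and reversed to 0.083 without tag number 19. For UVB over telogen in all nuclei (-0.25) it was -0.32 at gene ends, -0.15 scaled to housekeeping gene ends, -0.12 outside the S100a family, -0.36 without deep nuclei, -0.17 with second copies kept and -0.56 without tag number 19. In keratinocyte-like nuclei (-0.01) the same settings gave -0.11 at gene ends, 0.28 with housekeeping gene ends, 0.30 outside the S100a family, -0.14 without deep nuclei and 0.28 without tag number 19, and telogen tag numbers 8 to 10 alone gave -0.14. For anagen over telogen in all nuclei (-0.33) it was -0.20 with housekeeping gene ends, -0.996 outside the S100a family, -0.10 without deep nuclei and -0.25 with second copies kept. In keratinocyte-like nuclei (0.19) it was 0.38 in cluster 10 alone, 0.37 with housekeeping gene ends and 0.59 outside the S100a family. Members at least 2-fold higher in keratinocyte-like than in other nuclei numbered 5 in anagen at gene ends, without deep nuclei or with each nucleus and feature pair counted once (presence), against 8. In telogen they numbered 3 in cluster 10 alone, 5 at gene ends and 3 with tag numbers 8 to 10, against 9. Members past 2-fold for UVB over anagen in all nuclei numbered 3 without deep nuclei and 3 without tag number 19, against 5. In keratinocyte-like nuclei they numbered 4 without deep nuclei, 0 by presence, 1 with shared features left out and 0 without tag number 19, against 2. For UVB over telogen in all nuclei they numbered 0 at gene ends, 2 with housekeeping gene ends, 2 with tag numbers 8 to 10 and 6 without tag number 19, against 1. In keratinocyte-like nuclei they numbered 2 in cluster 10, at gene ends, with housekeeping gene ends and with tag numbers 8 to 10, and 0 by presence, against 1. For anagen over telogen they numbered 2 in all nuclei without deep nuclei, against 5, and 1 in keratinocyte-like nuclei in cluster 1 or by presence, against 2. Single members that reversed in keratinocyte-like nuclei of cluster 1 were Crnn (1.03 for UVB over anagen, -0.63 for anagen over telogen) and Ivl (0.029 for UVB over anagen). In cluster 10 they were S100a1 (-0.092 for anagen over telogen), S100a11 (0.045) and S100a14 (0.47), both for UVB over telogen. Without deep nuclei they were S100a11 (-0.20), S100a3 (-0.24) and S100a9 (0.032) for UVB over anagen, S100a6 (0.093) for anagen over telogen and Sprr1a (0.012) for UVB over telogen, all nuclei. Without tag number 19 they were S100a14 (-0.0024) and S100a3 (-0.59) for UVB over anagen in all nuclei, and S100a11 (0.20) for UVB over telogen in keratinocyte-like nuclei. Sprr1a was 0.46 for UVB over telogen in all nuclei with telogen tag numbers 8 to 10, and Sprr1b -0.31 in all and -0.32 in keratinocyte-like nuclei at gene ends. No paired analysis was possible because each condition is 1 pooled sample. Of the 57 members, 35 had under 30 counts, and 26 of these had no feature. Whether low depth had a part in the missing features was not tested.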
